A study of Mus musculus with 24 samples.

Results

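Hearts carrying a constitutively active phosphoinositide 3-kinase transgene (caPI3K) were compared with hearts carrying a dominant negative one (dnPI3K), in FVB/N mice that had a sham operation and no infarct. All 4 arrays titled caPI3K sham and all 4 titled dnPI3K sham were used, 8 of the 24 arrays of the series, and 14169 autosomal genes were tested. Per the labels, caPI3K raises and dnPI3K lowers PI3K activity in the heart, both lines have normal heart function and histology at baseline, and both transgenes are expressed in the heart. The labels do not name the promoter that drives each transgene. The operation was done at 4 months and the heart was removed 8 weeks after it. Nontransgenic (Ntg) sham hearts, 4 arrays, are given only as levels beside the other 2 groups, and infarcted (MI) hearts of caPI3K and dnPI3K mice, 4 arrays each, serve as a second comparison on separate arrays. Hearts were homogenized individually per the labels, which do not state that every array holds a different animal. The p-values therefore cover only the variation among the arrays, which may be technical in part.

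PI3K is the lipid kinase that carries signals from the insulin and insulin-like growth factor 1 (IGF1) receptors, through the docking proteins IRS1 and IRS2, to the kinase AKT. AKT activates mTOR and protein synthesis, and it keeps FoxO transcription factors out of the nucleus. In the heart this pathway is known for setting organ size during growth and for the enlargement that follows exercise training.

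The 8 sham arrays compared were alike in median signal and none stood apart by correlation, while the bright end differed between the groups as given with the ribosomal genes. The median signal was 104 to 114 over the caPI3K sham arrays and 103 to 119 over the dnPI3K sham arrays, in the linear units of the deposited values. Pearson correlations over the tested probe sets were 0.958 to 0.961 among caPI3K sham arrays, 0.953 to 0.959 among dnPI3K sham arrays and 0.946 to 0.955 between the groups. Replicates 1, 2 and 3 of caPI3K sham read the Y-linked gene Eif2s3y at 10.5 (log2) or more and Xist at 6.77 to 7.08, whereas the other 21 arrays of the series read Eif2s3y at no more than 5.72 and Xist at no less than 12.6. Replicate 4 of caPI3K sham is the only array of its group without Y-linked signal, and sex is not given in the labels. All 4 dnPI3K sham arrays lack it, so for those 3 arrays sex and transgene cannot be told apart. Array numbers, whose meaning is not given, are 1410 to 1417 for caPI3K sham, and 417, 418, 1181 and 1191 for dnPI3K sham. Signals below are listed for replicates 1 to 4 of each group, so the fourth caPI3K value is always the array without Y-linked signal.

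The genotypes differed at 1398 of 14169 autosomal genes (9.87%, limma, Benjamini-Hochberg adjusted p under 0.05 over all genes tested). Of these, 777 were higher in caPI3K sham hearts (5.48%) and 621 were lower (4.38%). These 2 shares are the background for each count of list members called in sham hearts below, unless another share is given. Most differences were small: the median size among called genes was 0.49 on the log2 scale, and 195 genes differed by at least 1 log2 unit, 114 of them higher and 81 lower. The 4 and 4 arrays did not overlap for 1266 of the called genes, and for 16.8% of all autosomal genes. With the caPI3K sham array without Y-linked signal as the only array of its group, 224 genes passed the threshold, 198 of them among the 1398 (1.58% of autosomal genes called, 0.727% higher and 0.854% lower). Of the 134 called genes named by the rule in the methods, 49 passed there. Values from that smaller comparison are called "without the Y-signal arrays" below. Log2 differences are caPI3K minus dnPI3K on log2 of signal plus 11.3, which compresses the differences of dim genes.

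The kinase genes themselves did not pass the test. Pik3ca, the gene of the catalytic subunit p110-alpha, had signals of 1650.4, 1501, 1508 and 1493 in caPI3K sham hearts and 1845, 1253, 1388 and 1852 in dnPI3K sham hearts, a difference of -0.02 (adjusted p = 0.955). Pik3r1, which encodes the regulatory subunit p85-alpha, differed by -0.02 (adjusted p = 0.967). The groups overlapped for both genes. Which transcript each transgene makes, and whether a probe set reads it, is not stated by the labels, so these values do not check the labels.

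Transcripts of the IGF1 receptor and of both docking proteins were lower in caPI3K hearts. Irs2, the docking protein that FoxO factors are known to induce, had signals of 20.4, 16.6, 17.5 and 16.4 in caPI3K sham hearts, against 267, 348, 273 and 214 in dnPI3K sham hearts and 252, 43.8, 167 and 19.7 in Ntg sham hearts. All 4 caPI3K values are under the 40th percentile of their arrays and all 4 dnPI3K values are above it, while Ntg arrays fell on both sides. The log2 difference for Irs2 was -3.29 (SE 0.58, adjusted p = 0.000369) and its size depends on the pseudocount, at -3.87 with 1 and -2.04 with 64. Without the Y-signal arrays it was -3.36, with an adjusted p of 0.0850.

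Irs1, the other main docking protein in the heart, read 1527, 1652, 1308 and 1564 in caPI3K sham hearts, 4555, 4229, 4841 and 4432 in dnPI3K sham hearts and 2419.9, 2292, 2240.2 and 1703 in Ntg sham hearts. The 3 genotypes did not overlap, with Ntg arrays between the transgenic groups, and the caPI3K minus dnPI3K difference was -1.57 (SE 0.12, adjusted p = 1.26e-09). Without the Y-signal arrays it was -1.52 (adjusted p = 8.49e-05). Igf1r, the IGF1 receptor, read 606, 574, 578 and 585 in caPI3K sham hearts and 1026, 1278, 975 and 1167 in dnPI3K sham hearts, a difference of -0.90 (SE 0.15, adjusted p = 0.000147). Without the Y-signal arrays it was -0.91 (adjusted p = 0.0646). Insr, the insulin receptor, had a difference of -0.42 (adjusted p = 0.0929), which did not pass.

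Several other genes of the pathway differed too, and they went in both directions. Akt1, one of the AKT kinases, was lower at 834, 765, 739.8 and 758 in caPI3K sham hearts against 1232, 1266, 1184 and 1130.0 in dnPI3K sham hearts, a difference of -0.63 (SE 0.10, adjusted p = 6.76e-05). Eif4ebp1, the translation repressor 4E-BP1 that mTOR inactivates, was lower by a difference of -0.61 (SE 0.10, adjusted p = 0.000221). Grb14, an adaptor that inhibits insulin receptor signalling, was higher: 8226, 8545, 8557 and 8855 in caPI3K sham hearts against 4513, 4474, 5677 and 5054 in dnPI3K sham hearts, with Ntg sham hearts at 7255, 7110.0, 6854 and 8582. The transgenic groups did not overlap and the Grb14 difference was 0.80 (SE 0.09, adjusted p = 1.45e-06). Igfbp3, which binds IGF1 outside the cell, was lower, with a difference of -0.94 (SE 0.14, adjusted p = 6.3e-05).

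Of the 42 genes listed for the insulin, IGF1 and PI3K pathway, 39 were tested, and 8 were higher (20.5%) and 7 lower (17.9%) in caPI3K sham hearts, with a median difference of -0.02 against 0.00051 over all autosomal genes. Among members chosen for mention after their values were seen, Igfbp5, another IGF-binding protein, was higher by 1.00 (adjusted p = 0.000391), and Mtor, the kinase itself, was higher by 0.38 (adjusted p = 0.0253).

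**Figure D1:**
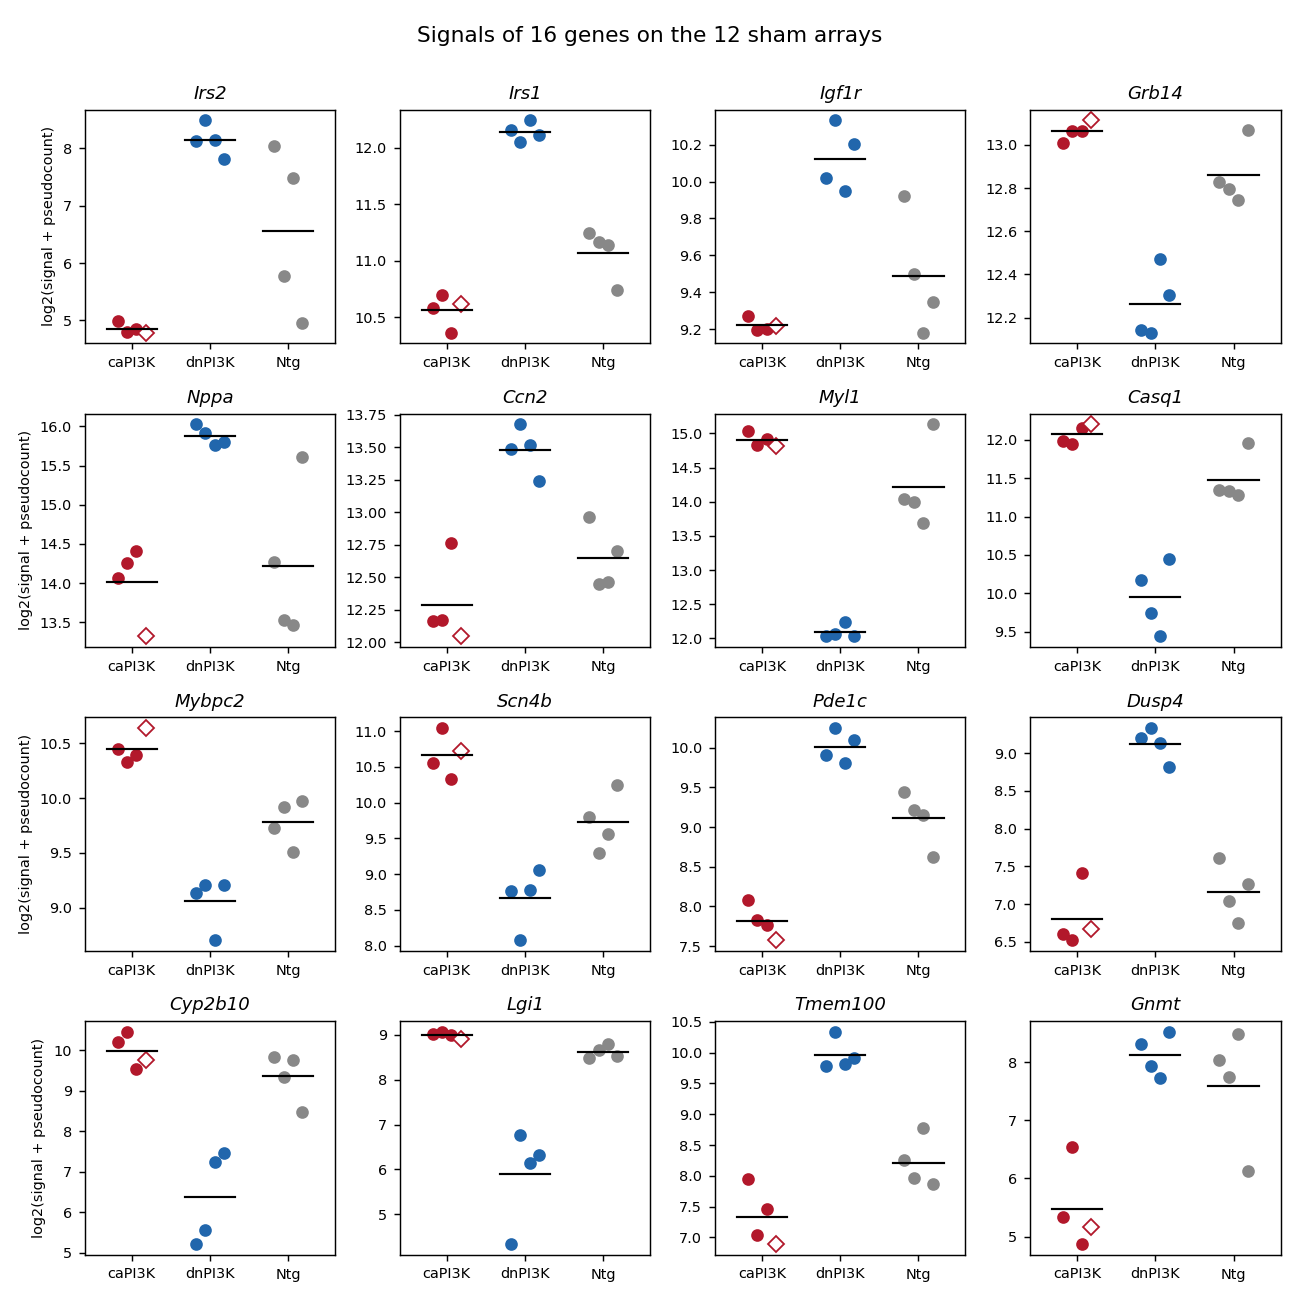
Signal of 16 genes on each of the 12 sham arrays, on the vertical axis as log2 of signal plus 11.3 (a separate scale for each gene), by genotype. Points are arrays, horizontal bars are group means, and the open diamond is the caPI3K sham array without Y-linked signal. In every panel the 4 caPI3K sham arrays lie apart from the 4 dnPI3K sham arrays, and the Ntg sham arrays lie mostly between or near one of them. For the genes chosen as the largest differences, non-overlap of the transgenic groups was a condition of their choice. In their panels the separation is therefore no result.

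FoxO transcription factors switch on genes of atrophy, autophagy, antioxidant defence and insulin signalling when PI3K activity is low. Their own transcripts did not pass: Foxo1 differed by -0.14 (adjusted p = 0.501) and Foxo3 by -0.44 (adjusted p = 0.0696). Of 27 listed factors and targets that were tested, 5 were lower (18.5%) and 1 was higher (3.70%), against 4.38% and 5.48% of all autosomal genes. The median difference of the list was -0.14. The lower members were Irs2 and Eif4ebp1, described above, the autophagy gene Gabarapl1 at -0.45 (adjusted p = 0.00467), the cell cycle inhibitor Cdkn1b at -0.55 (adjusted p = 0.0164), and Mxi1, a Myc antagonist outside the rule for named genes, at -0.39 (adjusted p = 0.00542). The higher member was Cat, the hydrogen peroxide-degrading enzyme catalase and also a known FoxO target, at 0.60 (adjusted p = 3.16e-05). The known muscle targets Fbxo32 and Pdk4 did not pass. Fbxo32, the atrophy ubiquitin ligase, differed by 0.18 (adjusted p = 0.560), and Pdk4, the kinase that shuts down pyruvate oxidation, had signals of 11345, 19188, 11284 and 14838 in caPI3K sham hearts and 5903, 9799, 3101 and 10647 in dnPI3K sham hearts, groups that did not overlap, with a difference of 1.06 (adjusted p = 0.113).

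The core letters of the motif bound by forkhead factors such as FoxO, GTAAACA, were searched on both strands of RefSeq promoter windows (GRCm38.p6, 250 bases before to 50 after the start) of the 30 autosomal genes with the largest non-overlapping differences. A window was found for 22 of these genes, 13 higher and 9 lower. The motif was present for Pde1c, the gene of a calcium-activated cyclic nucleotide phosphodiesterase that was lower in caPI3K sham hearts, and for Egf, the gene of epidermal growth factor, which was higher. Both windows are shown because they are the ones among the genes with the largest differences that hold these letters, with the motif or its reverse complement in capitals and the strand of the gene read 5′ to 3′. The Pde1c window lies on the minus strand at chr6:56369585-56369884, with GTAAACA starting 79 bases before the start and its reverse complement TGTTTAC starting at position 14, and is 1 of 3 windows listed for the gene. The Egf window lies on the minus strand at chr3:129725037-129725336, with GTAAACA starting 175 bases before the start, and is 1 of 2 windows listed for the gene.
Pde1c: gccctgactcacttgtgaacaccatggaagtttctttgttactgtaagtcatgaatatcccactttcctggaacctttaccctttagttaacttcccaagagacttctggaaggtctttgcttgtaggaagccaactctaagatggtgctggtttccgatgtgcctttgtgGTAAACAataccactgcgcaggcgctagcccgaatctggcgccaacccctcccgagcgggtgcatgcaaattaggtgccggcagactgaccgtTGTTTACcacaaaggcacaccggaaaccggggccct
Egf: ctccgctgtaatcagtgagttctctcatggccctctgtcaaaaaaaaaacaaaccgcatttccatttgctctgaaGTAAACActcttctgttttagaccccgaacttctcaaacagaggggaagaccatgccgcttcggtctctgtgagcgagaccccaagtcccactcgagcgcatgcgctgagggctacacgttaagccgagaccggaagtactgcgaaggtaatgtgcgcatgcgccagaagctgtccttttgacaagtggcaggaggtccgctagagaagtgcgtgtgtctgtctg
The motif was in at least 1 window of 4.20% of the called genes that were lower in caPI3K sham hearts (21 of 500 with a window), 2.20% of those that were higher (14 of 635) and 3.18% of all autosomal genes tested with a window (361 of 11348). These shares are a description of the letters in these windows.

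Pde1c signals were 260.2, 216, 206 and 179 in caPI3K sham hearts, 950.5, 1204, 882 and 1082 in dnPI3K sham hearts and 684, 583, 559 and 382 in Ntg sham hearts. Every Ntg array lay between the transgenic groups, and the caPI3K minus dnPI3K difference was -2.20 (SE 0.19, adjusted p = 1.65e-08). Egf read 486, 503, 336 and 378 in caPI3K sham hearts and 87.7, 93.1, 92.6 and 113 in dnPI3K sham hearts, a difference of 2.01 (SE 0.23, adjusted p = 1.29e-06).

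Natriuretic peptides, hormones whose genes rise in a stressed or failing ventricle, were lower in caPI3K hearts. Nppa, atrial natriuretic peptide, read 17210.0, 19504, 21819 and 10218 in caPI3K sham hearts, 66782, 61694, 55371 and 57035 in dnPI3K sham hearts and 19734, 11869, 11340.0 and 49869 in Ntg sham hearts. The transgenic groups did not overlap, while 3 of the 4 Ntg arrays lay at or below the caPI3K range's upper end and the fourth was close to the dnPI3K arrays. The Nppa difference was -1.86 (SE 0.27, adjusted p = 4.12e-05), and without the Y-signal arrays it was -2.55 (adjusted p = 0.00148). Nppb, brain natriuretic peptide, read 26370.4, 22916, 31144 and 19654 in caPI3K sham hearts and 44907, 41740.1, 38645 and 35275 in dnPI3K sham hearts, a difference of -0.70 (SE 0.11, adjusted p = 0.00015). Ccn2, connective tissue growth factor, a secreted matrix protein induced by mechanical load, was lower in the same way, at 4562, 4593, 6947 and 4209 in caPI3K sham hearts and 11452, 13086, 11708 and 9670.0 in dnPI3K sham hearts, a difference of -1.20 (SE 0.13, adjusted p = 7.84e-07). Of 18 tested natriuretic and fetal genes, 5 were lower and 1 was higher, with a median difference of -0.22.

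Nppa is also an atrial marker, and the chambers that each sample holds are not given. The summed signal of 8 atrial markers, Nppa included, was 20396 to 36994 on caPI3K sham arrays and 62068 to 72799 on dnPI3K sham arrays. Most of this sum was Nppa signal on every one of these arrays, so it mainly restates the Nppa difference. Among these markers 6 had a positive difference, the median was 0.76, and 2 passed: Nppa was lower and Kcnj3 was higher. Kcnj3, an acetylcholine-gated potassium channel of the atrium and pacemaker tissue, read 485, 493, 409 and 496 in caPI3K sham hearts and 326, 195, 231 and 305 in dnPI3K sham hearts, a difference of 0.83 (SE 0.19, adjusted p = 0.00528). The part of chamber content in these values was not tested.

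The other classical markers of the fetal programme did not follow the natriuretic peptides. Myh6, the adult alpha-myosin heavy chain, differed by -0.20 (adjusted p = 0.173) and Myh7, the fetal beta-myosin heavy chain, by 0.12 (adjusted p = 0.894). Neither passed, nor did Atp2a2, the sarcoplasmic reticulum calcium pump, at -0.19 (adjusted p = 0.171), or its inhibitor Pln at -0.14 (adjusted p = 0.332). Acta1, skeletal alpha-actin, was higher in caPI3K sham hearts: 39461, 33925, 37323 and 28604 against 14619.6, 18796, 17433 and 21786 in dnPI3K sham hearts, a difference of 0.94 (SE 0.17, adjusted p = 0.000505). Myom2, an M-band protein, was lower, with a difference of -0.94 (SE 0.13, adjusted p = 1.67e-05).

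Of 19 tested genes of skeletal-type muscle, 4 were higher in caPI3K hearts and none was lower, and the largest of these differences was that of Myl1. Myl1, the fast skeletal essential myosin light chain, read 33531, 29021, 31052 and 28679 in caPI3K sham hearts, against 4169, 4289, 4836 and 4166 in dnPI3K sham hearts and 16754, 16355, 13142 and 35965 in Ntg sham hearts. The transgenic groups were far apart, with a difference of 2.80 (SE 0.20, adjusted p = 7.66e-10), a fold of 6.99. Ntg arrays lay above every dnPI3K array, and 1 of them, replicate 4, was brighter than every caPI3K array.

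Casq1, the calcium-binding calsequestrin of skeletal muscle, read 4024, 3937, 4554 and 4708 in caPI3K sham hearts, 1144, 846, 681 and 1389 in dnPI3K sham hearts and 2591, 2559, 2469 and 3953 in Ntg sham hearts, with a caPI3K minus dnPI3K difference of 2.12 (SE 0.17, adjusted p = 4.57e-09). Mybpc2, fast-type myosin-binding protein C, read 1389, 1273, 1331 and 1585 in caPI3K sham hearts and 549, 578, 405 and 578 in dnPI3K sham hearts, a difference of 1.39 (SE 0.12, adjusted p = 1.65e-08). The transgenic groups did not overlap for Mybpc2, and for Casq1 non-overlap was a condition of its choice. Fbp2, muscle fructose-bisphosphatase, was also higher: 491, 622, 618 and 808 in caPI3K sham hearts against 127, 57.5, 114 and 356 in dnPI3K sham hearts, with a difference of 2.14 (SE 0.44, adjusted p = 0.00168). Without the Y-signal arrays it was 2.50 (adjusted p = 0.0919). Without the Y-signal arrays the differences of Myl1, Casq1 and Mybpc2 were 2.72, 2.25 and 1.58, and each passed.

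The skeletal-type list holds 31 genes, of which 19 were bright enough to be tested. The called members were Myl1, Casq1, Mybpc2 and Acta1, and the median over the 19 was 0.15, with 10 positive and 9 negative differences. A separate list of 8 markers of skeletal muscle fibres had 4 tested members. None passed, their median was -0.29, and their summed signal was 221 to 355 on caPI3K sham arrays and 281 to 505 on dnPI3K sham arrays.

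Genes of the Z-disc, the structure that anchors actin filaments and senses stretch, were called higher in 7 of 20 and lower in none, with a median of 0.13 (0.12 without the Y-signal arrays). Flnc, the actin cross-linker filamin C, read 1346, 1642, 1227 and 1216 in caPI3K sham hearts and 572, 539, 559 and 998 in dnPI3K sham hearts, a difference of 1.05 (SE 0.20, adjusted p = 0.000752). Ankrd23, a stretch-responsive ankyrin repeat protein bound to titin, differed by 1.19 (adjusted p = 3.95e-05), the PDZ and LIM protein gene Pdlim7 by 1.04 (adjusted p = 1.82e-06) and the LIM domain protein gene Fhl2 by 0.64 (adjusted p = 0.000333). Among 22 tested genes of the ventricular sarcomere 1 was higher (4.55%) and 2 were lower (9.09%), against 5.48% and 4.38% of all autosomal genes. They were Ldb3, which encodes the Z-disc protein cypher, at 0.38 (adjusted p = 0.00242), Myom2, given above, and Myoz2, the calcineurin-binding protein calsarcin-1, at -0.28 (adjusted p = 0.0451).

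Genes of electrical and adrenergic signalling followed no single direction. Scn4b, the beta-4 subunit of the sodium channel, had the largest difference among the listed sodium and potassium channel genes: 1484, 2097, 1279.9 and 1684 in caPI3K sham hearts, 425, 258, 426 and 524 in dnPI3K sham hearts and 883, 618, 744 and 1203 in Ntg sham hearts. The difference was 1.99 (SE 0.19, adjusted p = 6.21e-08), and it was 2.06 without the Y-signal arrays. Of the 10 sodium channel and connexin genes tested Scn4b was the only one called. Kcnd2, the transient outward potassium channel Kv4.2, was higher by 0.74 (adjusted p = 0.00208), whereas Kcnip2, the accessory subunit of the same current, was lower, with a difference of -0.63 (adjusted p = 0.000637). Of 17 tested potassium channel genes 2 were higher (11.8%) and 1 was lower (5.88%), against 5.48% and 4.38% of all autosomal genes.

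Adra1b, the alpha-1B adrenergic receptor, read 261, 280.2, 284 and 332 in caPI3K sham hearts and 31.8, 86.5, 125 and 102 in dnPI3K sham hearts, a difference of 1.74 (SE 0.35, adjusted p = 0.00130). Adcy6, a major cardiac adenylyl cyclase, was lower with a difference of -0.67 (adjusted p = 0.000638), as were the cyclic nucleotide phosphodiesterases Pde1c, given above, and Pde8a at -0.75 (adjusted p = 0.000224). In the list of 22 tested adrenergic, angiotensin and endothelin genes, 2 were higher (9.09%) and 3 lower (13.6%), against 5.48% and 4.38% of all autosomal genes. Among calcium-cycling genes 2 of 20 were higher (10%) and 1 was lower (5%), against the same shares of all autosomal genes. Casq2, the cardiac calsequestrin, differed by 0.32 (adjusted p = 0.0171), the calcium channel subunit gene Cacna2d1 by 0.53 (adjusted p = 0.00330) and S100a1, a calcium-binding activator of the ryanodine receptor, by -0.30 (adjusted p = 0.00655). Tbx3, a transcription factor of the conduction system, was lower with a difference of -0.82 (adjusted p = 0.0395), but stood at -0.40 without the Y-signal arrays. Nkx2-5, a core cardiac transcription factor, was higher by 0.44 (adjusted p = 0.00410).

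Of 23 tested genes of calcineurin, MAP kinase phosphatases and growth signalling, 2 were higher (8.70%) and 2 lower (8.70%), against 5.48% and 4.38% of all autosomal genes, with a median of -0.03. Dusp4, which dephosphorylates ERK and JNK in the nucleus, read 86.0, 80.5, 159 and 90.5 in caPI3K sham hearts, 578, 634, 549 and 438 in dnPI3K sham hearts and 183, 121, 96.0 and 143 in Ntg sham hearts. The Ntg values lay in or near the caPI3K range and under every dnPI3K array, and the caPI3K minus dnPI3K difference was -2.32 (SE 0.25, adjusted p = 4.6e-07). Dusp8, another phosphatase of this family, had the largest positive difference of the list, at 0.68 (adjusted p = 0.00234). Mapk10, the kinase JNK3, is outside this list and was also higher: 1761, 2077, 1617 and 1692 in caPI3K sham hearts against 636, 539, 279.8 and 468 in dnPI3K sham hearts, with a difference of 1.92 (SE 0.22, adjusted p = 8.82e-07). Ccnd2, cyclin D2, was lower with a difference of -0.66 (adjusted p = 0.00011). So were the cell cycle inhibitors Cdkn1b, given above, and Cdkn2c, at -0.42 (adjusted p = 0.0122). The list of 24 cell division genes had 4 lower (16.7%) and none higher, with 11 positive and 13 negative differences and a median of -0.05.

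Fatty acid genes were higher where they passed. Of 35 tested genes of fatty acid uptake and oxidation, 5 were higher and none was lower, and the median was 0.15. Slc25a20, the carnitine-acylcarnitine carrier of the inner mitochondrial membrane, read 7518, 7365, 6821 and 7397 in caPI3K sham hearts and 4501, 3982, 4222 and 5696 in dnPI3K sham hearts, a difference of 0.67 (SE 0.09, adjusted p = 2.31e-05). Cpt2, the inner carnitine palmitoyltransferase, was higher by 0.58 (adjusted p = 0.00134), Acads, short-chain acyl-CoA dehydrogenase, by 0.45 (adjusted p = 0.000966), and Plin5, a lipid droplet coat protein, by 0.64 (adjusted p = 0.00480). Ucp3, a mitochondrial carrier of skeletal muscle and heart mentioned because of its value, was higher by 1.17 (adjusted p = 0.0263). When the arrays were first given the same distribution of values (quantile normalization, 9.92% of autosomal genes called, 5.57% higher and 4.35% lower), 13 members were higher and none lower.

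The coactivators that govern these enzymes differed in opposite directions. Ppargc1a, PGC-1alpha, read 1624, 1907, 1459 and 1655 in caPI3K sham hearts and 3743, 3536, 3108 and 4095 in dnPI3K sham hearts, a difference of -1.12 (SE 0.19, adjusted p = 0.000304). Ppargc1b, its relative PGC-1beta, was higher by 0.34 (adjusted p = 0.0324). Ppara, the fatty acid-sensing receptor that partners them, did not pass, at -0.15 (adjusted p = 0.630).

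Carbohydrate genes differed in part. Pygl, the glycogen phosphorylase known as the liver form, read 482, 506, 465 and 429 in caPI3K sham hearts and 1174, 1089, 1139 and 1023 in dnPI3K sham hearts, with a difference of -1.22 (SE 0.14, adjusted p = 8.53e-07). Ugp2, which makes UDP-glucose for glycogen, was lower at -0.47 (adjusted p = 0.00122), and Ppp1r3d, a subunit that targets a phosphatase to glycogen, was higher by 0.73 (adjusted p = 0.000424). In all, 3 of 16 glycogen genes were higher and 2 lower. Slc2a1, the basal glucose transporter GLUT1, was lower at -0.65 (adjusted p = 0.00051), while Slc2a4, the insulin-responsive GLUT4, did not pass at -0.23 (adjusted p = 0.183). Pfkl, a phosphofructokinase subunit, was higher by 0.65 (adjusted p = 0.00334) and Pfkfb2, the cardiac enzyme that makes its activator fructose 2,6-bisphosphate, was lower at -0.52 (adjusted p = 0.0213).

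Amino acid and nutrient transporters were lower in 4 of 17 tested members (23.5%) and higher in 2 (11.8%). The median of the list was 0.04, with 10 positive and 7 negative differences, so the list as a whole had no lower level. Slc38a1, a neutral amino acid transporter that takes up glutamine, read 174, 113, 254 and 272 in caPI3K sham hearts and 573, 709.9, 505 and 674 in dnPI3K sham hearts, a difference of -1.61 (SE 0.22, adjusted p = 1.78e-05). Its relative Slc38a2 differed by -0.86 (adjusted p = 0.00120), the cationic amino acid transporter Slc7a1 by -1.06 (adjusted p = 5.04e-05), and the glutamine transporter Slc1a5 by -0.56 (adjusted p = 0.00671). The lactate and pyruvate transporter Slc16a7, which is outside this list, was also lower, with a difference of -1.88 (SE 0.44, adjusted p = 0.00497).

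Transcripts of the cytosolic ribosome were mostly lower: 32 of 46 tested ribosomal protein genes were lower in caPI3K sham hearts and none was higher, with a median of -0.32. Rpsa read 17591, 17174, 18319 and 18622 in caPI3K sham hearts and 28851, 24909, 23638 and 25194 in dnPI3K sham hearts, a difference of -0.51 (SE 0.08, adjusted p = 9.51e-05), and Rpl35, Rps3 and Rps4l differed by -0.55, -0.50 and -1.07. Whether the probe set of Rps4l also reads its near-identical relatives was not tested. The median of the list on each array, relative to the mean of the 8 arrays, was -0.27 to -0.12 over caPI3K sham arrays, 0.08 to 0.34 over dnPI3K sham arrays and -0.07 to 0.22 over Ntg sham arrays. The 2 Ntg arrays numbered under 1000 were the high ones of their group, and the 2 dnPI3K arrays numbered under 1000 were the high ones of theirs. Without the sham arrays numbered under 1000, when 4.09% of autosomal genes were called, 2.37% higher and 1.72% lower, 15 members were lower. Without the Y-signal arrays the median was -0.31 and 1 member, Rps4l, was lower (all autosomal genes 0.854% lower).

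These transcripts are among the brightest on the array, and the bright end differed between the groups: the 99th percentile of signal was 17362 to 17500 on caPI3K sham arrays and 18260 to 20892 on dnPI3K sham arrays. In the brightest of 10 equal bins of autosomal genes 215 were lower and 155 were higher, and the median difference was -0.05, which became 0.02 after quantile normalization. After quantile normalization 17 ribosomal protein genes were lower (all autosomal genes 4.35%) and none higher, with a median of -0.15. Subunits of the respiratory chain had 8 of 73 lower, none higher and a median of -0.16, while after quantile normalization 4 were higher, 3 were lower and the median was 0.01. Thus the direction of the respiratory chain list depended on the scaling and that of the ribosomal list did not. Among 76 mitochondrial ribosomal protein genes 12 were higher (15.8%) and 4 lower (5.26%), with a median of 0.04, against 5.48% and 4.38% of all autosomal genes. Mrps34 was higher by 0.62 (adjusted p = 3.07e-05) and Mrps6 by 0.49 (adjusted p = 2.75e-05), both parts of the small mitochondrial subunit.

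**Figure D2:**
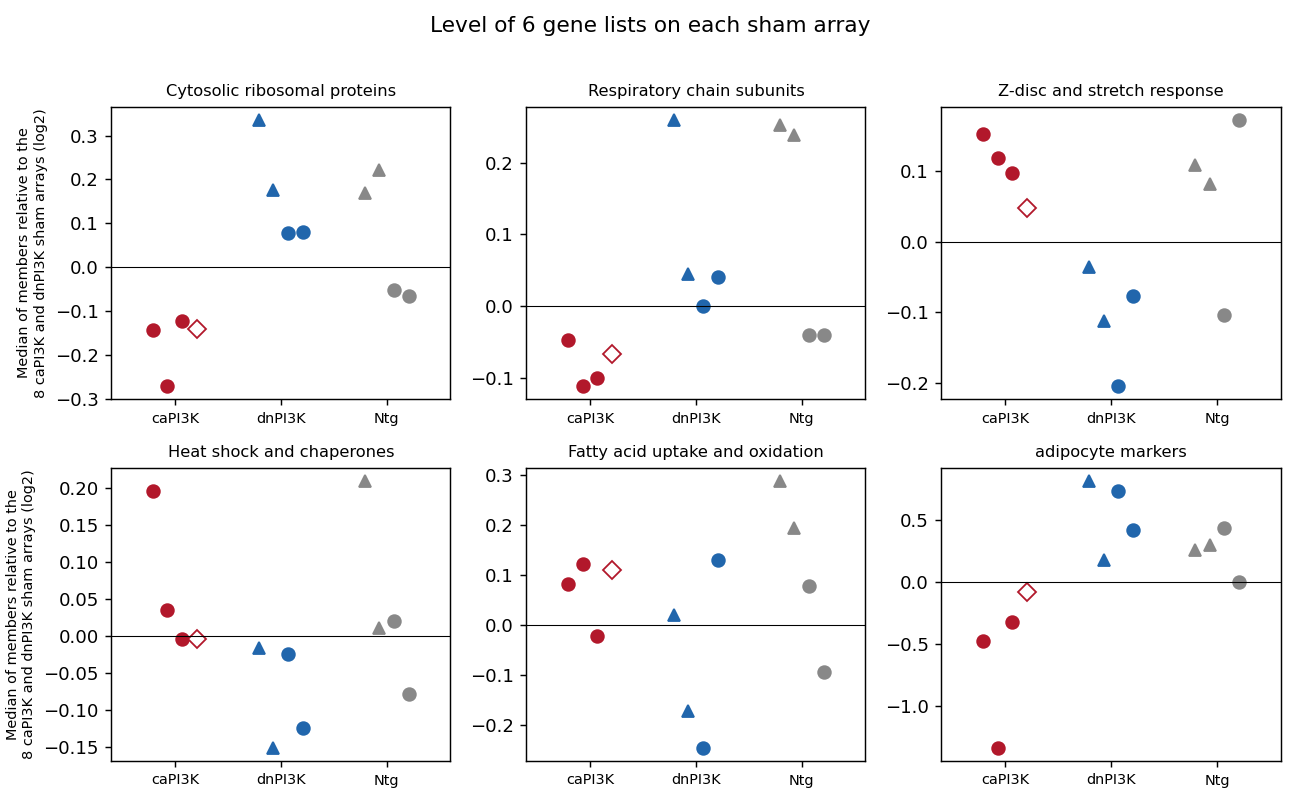
Median over the tested members of 6 gene lists on each of the 12 sham arrays, as the log2 difference from each gene's mean over the 8 caPI3K and dnPI3K sham arrays. Triangles are arrays numbered under 1000, and the open diamond is the caPI3K sham array without Y-linked signal. Every caPI3K sham array lies below every dnPI3K sham array for the ribosomal, respiratory chain and adipocyte lists. Every one lies above them for the Z-disc and chaperone lists, while the groups overlap for the fatty acid list.

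Chaperones were higher where they passed, at 7 of 23 with none lower (11 after quantile normalization, none lower). Hsph1, the large heat shock protein HSP110, read 4488, 4101, 3479 and 4789 in caPI3K sham hearts and 1645, 1377, 2734 and 1881 in dnPI3K sham hearts, a difference of 1.17 (SE 0.18, adjusted p = 6.77e-05). The small heat shock proteins Hspb8 and Hspb3 were higher by 0.66 and 0.69 (adjusted p = 5.35e-05 and 0.000265). Antioxidant genes went both ways, with 5 of 33 higher and 4 lower. Nqo1, a quinone reductase induced by the stress factor NRF2, was higher by 0.83 (adjusted p = 0.000499), whereas Gsta3, a glutathione S-transferase, was lower: 291, 270.3, 269.8 and 167 in caPI3K sham hearts against 934, 1232, 928 and 865 in dnPI3K sham hearts, with a difference of -1.95 (SE 0.29, adjusted p = 5.06e-05). Its relative Gsta4 was higher by 0.49 (adjusted p = 0.000117). Proteasome subunits were called higher and lower in 3 of 39 each (7.69%), against 5.48% higher and 4.38% lower over all autosomal genes.

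Of 54 matrix genes 3 were higher (5.56%) and 5 lower (9.26%), against 5.48% and 4.38% of all autosomal genes. Col1a1, the main fibrillar collagen chain, did not pass at 0.36 (adjusted p = 0.629). Col14a1, a collagen that coats fibrils, read 397, 481, 595 and 823 in caPI3K sham hearts and 1208, 1605, 1596 and 1307 in dnPI3K sham hearts, a difference of -1.34 (SE 0.20, adjusted p = 5.21e-05), and stood at -0.78 without the Y-signal arrays. Fbln1, a basement membrane and elastic fibre protein, differed by -0.87 (adjusted p = 0.000198) and Timp3, an inhibitor of matrix metalloproteinases, by -0.66 (adjusted p = 0.00216). Col4a1 and Col4a2, the paired basement membrane chains, mentioned because they went the other way, were higher by 0.54 and 0.58 (adjusted p = 0.0289 and 0.0424).

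In bulk heart tissue, fewer cells of a type and less RNA per cell cannot be told apart. Markers of cardiomyocytes, endothelial cells, macrophages, and smooth muscle cells and pericytes, 8 tested of each, had no member called, with medians of -0.18, -0.09, -0.14 and -0.16. Of 8 fibroblast markers 2 were lower, Tcf21 at -0.60 (adjusted p = 0.00114) and Dpt at -0.60 (adjusted p = 0.00927). Differences were positive for 3 of the 8 and negative for 5, with a median of -0.18, and -0.04 after quantile normalization. The 8 markers summed to 59409 to 67388 on caPI3K sham arrays and 68823 to 79803 on dnPI3K sham arrays. On Ntg sham arrays the sum was 53982 to 85851, a range that spans both groups. The labelled organ was checked on the defining cardiomyocyte gene Myh6, which read 55958 to 60074 on caPI3K sham arrays and 60838 to 76813 on dnPI3K sham arrays, and the cardiomyocyte markers summed to 347974 to 369460.0 and 357397 to 464416 in the same groups.

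Adipocyte genes formed the marker list with most calls, 3 lower of 5 tested, out of 8 listed. Adipoq, the fat cell hormone adiponectin, read 268, 163, 233 and 429 in caPI3K sham hearts and 1112, 686, 781 and 698 in dnPI3K sham hearts, a difference of -1.60 (SE 0.32, adjusted p = 0.00140). Car3, a carbonic anhydrase abundant in fat, differed by -1.33 (adjusted p = 0.0283) and Retn, the adipose hormone resistin, by -1.09 (adjusted p = 0.0398). The median of the list was -1.09, and -0.37 without the Y-signal arrays, where none of the 3 passed. The summed signal of the 5 tested markers was 39561 to 41513 on caPI3K sham arrays and 43803 to 53434 on dnPI3K sham arrays. Of 3 tested brown adipocyte markers Cidea was higher by 0.54 (adjusted p = 0.000928), and of 5 Schwann cell and neuronal markers Dbh, which makes noradrenaline, was higher by 0.90 (adjusted p = 0.000246). No member passed among 6 mesothelial markers, with a median of 0.56, or among 5 lymphocyte markers, with a median of -0.41, and no erythroid marker was bright enough to be tested.

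**Figure D3:**
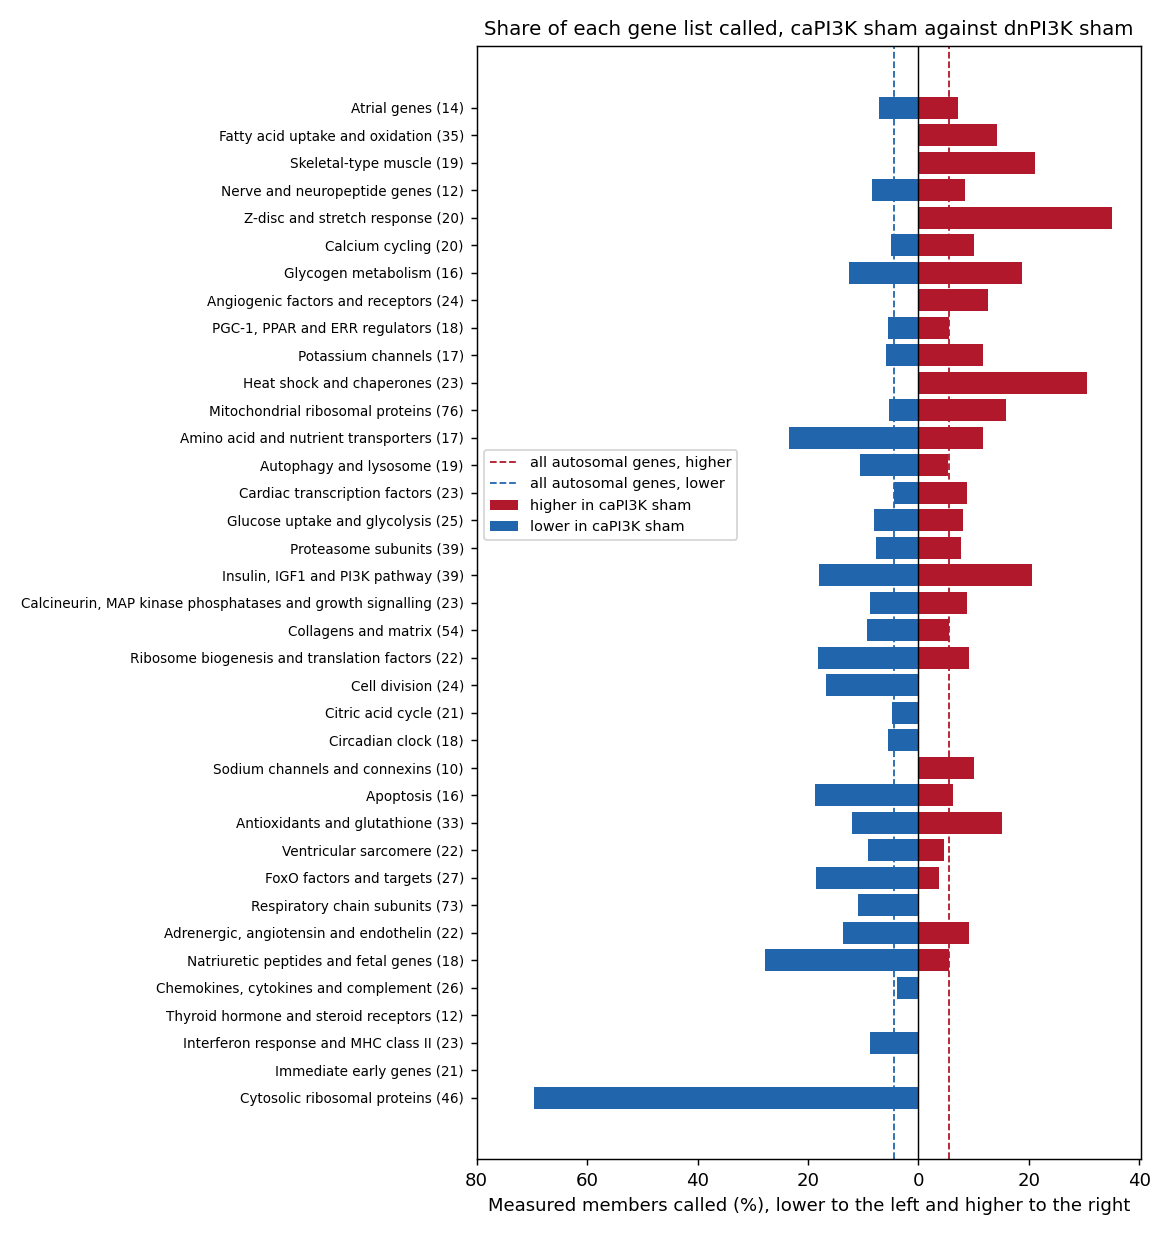
Share of the tested members of each pathway list called in caPI3K sham against dnPI3K sham hearts, in percent, higher to the right and lower to the left, with the number tested in brackets and lists ordered by their median difference. Dashed lines mark all autosomal genes, 5.48% higher and 4.38% lower, and the ribosomal list reaches farthest to the left while the Z-disc list reaches farthest to the right.

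Many of the largest differences besides Irs2 and Myl1 belonged to genes of none of these lists. Cyp2b10, a cytochrome P450 best known as a drug-inducible liver enzyme, read 1180.2, 1394, 736 and 850.4 in caPI3K sham hearts, 25.7, 35.6, 140.4 and 166 in dnPI3K sham hearts and 904, 638, 858 and 347 in Ntg sham hearts. Of the 4 dnPI3K values 2 were under the 40th percentile of their arrays, and the difference was 3.62 (SE 0.39, adjusted p = 4.64e-07). Non-overlap of the transgenic groups was a condition for entry among the 15 largest differences in each direction, so it is no result for these genes. Lgi1, a secreted leucine-rich protein of synapses, read 504, 525, 501 and 466 in caPI3K sham hearts, 8.88, 98.2, 59.4 and 68.1 in dnPI3K sham hearts and 349, 391, 435 and 360.3 in Ntg sham hearts, with a difference of 3.10 (SE 0.42, adjusted p = 1.32e-05). Every Ntg array lay above every dnPI3K array for both genes. Of the 30 largest differences, 15 in each direction, 20 passed without the Y-signal arrays, Cyp2b10 and Lgi1 among them, while 10 did not: Cnmd, Fbp2, Mettl11b, Pla2g5, Ptprn2, Irs2, Gbp6, Lad1, Slc16a7 and Slc38a1.

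The other genes of the 15 largest higher ones, besides those given above, ranged from 1.79 to 2.39. They were Cnmd, the cartilage protein chondromodulin, Mettl11b, an N-terminal methyltransferase, Masp1, a protease of the lectin complement pathway, Pla2g5, a secreted phospholipase A2, Ptprn2, a receptor-like protein of secretory granules, Nkain1, a partner of the sodium pump, and the predicted gene Gm10336. Pla2g5 read 768, 779, 581 and 862 in caPI3K sham hearts and 191, 70.1, 269 and 252 in dnPI3K sham hearts, a difference of 2.01 (SE 0.35, adjusted p = 0.000322). Only 2 of the 5 probe sets of Masp1 had a positive difference.

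Among the largest lower ones, Tmem100, a membrane protein of endothelium, read 236, 119.6, 166 and 107 in caPI3K sham hearts, 875, 1283, 894 and 954 in dnPI3K sham hearts and 293, 238, 426 and 222 in Ntg sham hearts. It differed by -2.63 (SE 0.23, adjusted p = 1.78e-08), and by -3.08 without the Y-signal arrays. Gnmt, glycine N-methyltransferase, which disposes of excess methyl groups in liver, read 28.9, 81.6, 17.9 and 24.5 in caPI3K sham hearts and 306, 233, 200.2 and 356 in dnPI3K sham hearts, a difference of -2.65 (SE 0.49, adjusted p = 0.000583). Only 1 of these caPI3K values, and all 4 dnPI3K values, were above the 40th percentile of their arrays. Gnb3, a G protein beta subunit, was lower, with a difference of -2.11 (SE 0.22, adjusted p = 3.18e-07). The rest ranged from -1.94 to -1.66: the DNA repair factor Shld1, the basement membrane protein Lad1, the interferon-inducible GTPase Gbp6, the aryl hydrocarbon receptor repressor Ahrr and the glycosyltransferase Gcnt1. Lad1 stood at -0.98 without the Y-signal arrays.

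The same genotypes were also compared in infarcted hearts, on 8 other arrays, none of which carries Y-linked signal. There 606 of 14169 autosomal genes were called (4.28%), 422 higher (2.98%) and 184 lower (1.30%) in caPI3K MI hearts. Of the 1398 genes called in sham hearts 1205 differed in the same direction after infarction (86.2%), against 60.3% of all autosomal genes. In both comparisons 340 genes passed in the same direction, which is 24.3% of the sham calls and 56.1% of the MI calls. Of the 134 named genes called in sham hearts, 121 had the same direction after infarction and 62 passed. Replicate 1 of dnPI3K MI had a median signal of 151, against 105 to 115 on the other caPI3K MI and dnPI3K MI arrays. Its mean correlation with the arrays of its group was 0.923. The other dnPI3K MI arrays had 0.947 to 0.948 and the caPI3K MI arrays 0.960 to 0.963. That array was kept in the comparison.

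Myl1, Casq1, Mybpc2 and Scn4b were among those that passed in both comparisons, and 3 of the 19 skeletal-type genes were higher after infarction. Myl1 read 30009, 33129.6, 27825 and 34508 in caPI3K MI hearts and 6585, 6503, 5221 and 10794 in dnPI3K MI hearts, a difference of 2.16 (SE 0.20, adjusted p = 1.88e-07). The MI differences were 1.67 for Casq1 (adjusted p = 4.86e-07) and 1.81 for Scn4b (adjusted p = 6.45e-07). Lower in both were Irs1 at -1.12 (adjusted p = 5.43e-07), Dusp4 at -2.25 (adjusted p = 1.59e-06), Pde1c at -1.46 (adjusted p = 2.28e-05), and Tmem100 at -1.83 (adjusted p = 1.35e-05). Irs2 read 17.6 to 69.5 in caPI3K MI hearts and 66.2 to 335 in dnPI3K MI hearts, a difference of -1.83 that did not pass (adjusted p = 0.0771).

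Nppa read 43335, 44825, 35019.9 and 43214 in caPI3K MI hearts and 57149, 52900.1, 60358 and 58569 in dnPI3K MI hearts. Those groups did not overlap, as in sham hearts, but the MI difference did not pass, at -0.47 (adjusted p = 0.424). Acta1 differed by 0.04 (adjusted p = 0.946) and Flnc by 0.06 (adjusted p = 0.920). Of the 46 ribosomal protein genes 1 was higher and none lower, with a median of -0.03. Adipoq had a difference of 0.53 in infarcted hearts (adjusted p = 0.439) and -1.60 in sham hearts, and Gnmt had 0.78 in infarcted hearts (adjusted p = 0.459) and -2.65 in sham hearts. Gnmt was dim: its signal was above the 40th percentile on 1 of 4 caPI3K sham, 2 of 4 caPI3K MI and 0 of 4 dnPI3K MI arrays. The sizes of its differences are therefore uncertain. Fatty acid genes had 13 of 35 higher and none lower, and mitochondrial ribosomal protein genes 22 of 76 higher and none lower. In this comparison 2.98% of all autosomal genes were higher and 1.30% lower. The median MI difference was -0.06 in the dimmest of 10 equal bins of autosomal genes and 0.06 in the brightest. That brightest bin holds 24 of the 35 fatty acid genes and 38 of the 76 mitochondrial ribosomal protein genes. The part of brightness in these counts was not tested. The MI difference minus the sham difference passed for 0 genes (0%) in limma, 1440 having an unadjusted p under 0.05. The smallest adjusted p was 0.0733, for Gnmt. The count was 61 when the 4 groups compared were fitted alone and 43 with array weights, so whether a gene's difference is called unequal in sham and infarcted hearts depended on the fit.

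**Figure D4:**
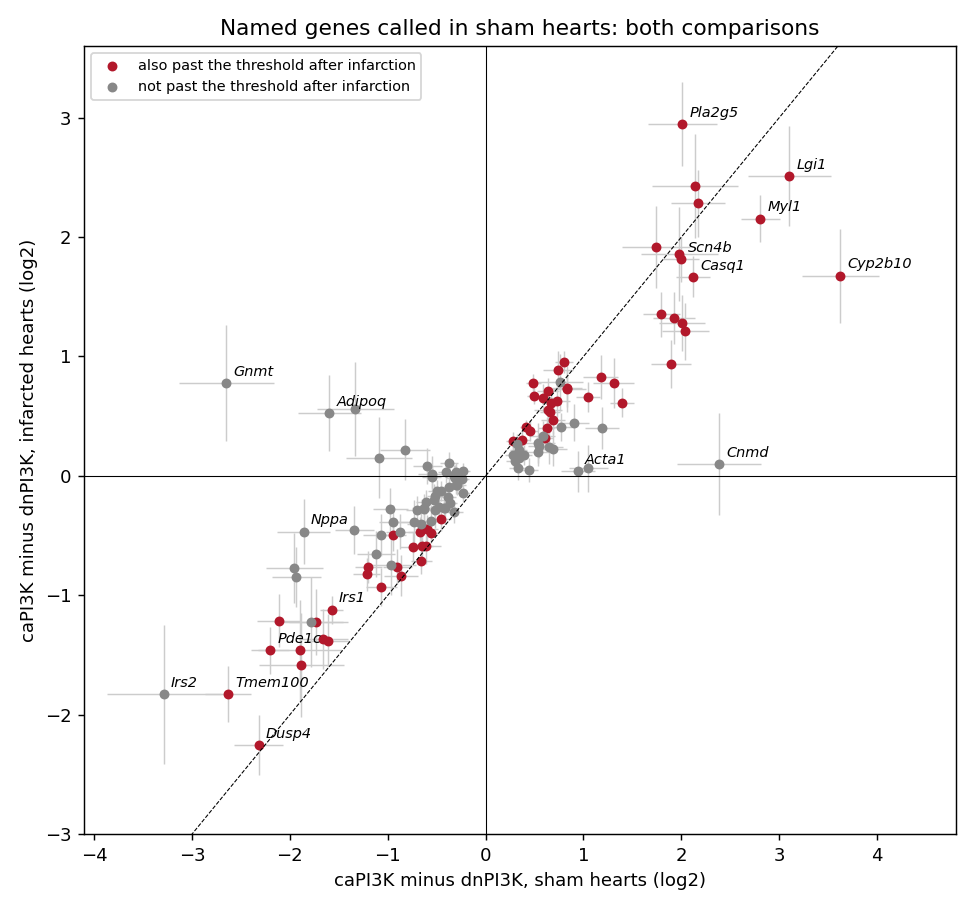
Log2 difference of caPI3K minus dnPI3K in sham hearts (horizontal) and in infarcted hearts (vertical) for the 134 named genes called in sham hearts, with bars of 1 standard error and a dashed line where both are equal. Of these, 121 lie on the same side of zero in both and the 62 red ones also passed in infarcted hearts, while Gnmt and Adipoq lie in the upper left of the plot.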

How the data were processed

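Gene expression was measured on Affymetrix arrays in 24 heart samples, 6 groups of 4. The deposited values are signal intensity on a linear scale, made by the authors with MAS5 per the submitters' processing notes. Its version: not given in the sources used here. Every array has a mean of 500 after trimming 2% at each end, so the arrays were scaled before deposit and no other normalization was applied. Of 45101 probe sets, 34945 name 1 gene, 932 several, 9160 none and 64 are controls. Only those with 1 gene were used, and 34741 of them matched RefSeq for chromosome and current symbol.

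Probe sets above the 40th percentile of their own array on at least 4 arrays were kept (27099), the brightest on average stood for its gene (14753 genes, 14169 autosomal), and signals were taken as log2 of signal plus 11.3, the median divided by 10. limma 3.58.1 (R 4.3.3) was fitted with an intensity trend to 6 group means over all 24 arrays, with 18 residual degrees of freedom, and p-values were adjusted by Benjamini-Hochberg over all 14753 genes. The number of arrays limits the precision. Plots used matplotlib 3.10.9 (Python 3.11.15). On simulated data with 200 changed genes among 14753, 42.5% were called at a difference of 0.5, 83.5% at 1 and 98.2% at 2.

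Genes were named as 22 fixed genes (21 tested), the 15 largest called and non-overlapping autosomal differences in each direction with a brighter group mean of at least 8 (log2), and up to 4 called members of smallest p in each of 50 gene lists, 148 in all. The members and the lists were chosen with earlier results of these data known. Alternatives were quantile normalization, other pseudocounts and filters, the mean of all probe sets, the groups compared fitted alone, no trend, array weights, a term for array numbers under 1000, and leaving out arrays. Replicate numbers follow accession order and pair nothing.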

Additional observations from a re-analysis of the deposited data

Results flagged for a closer look

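One array lay apart from the other 3 of its group, by Dixon's criterion on the log2 scale, for 18 of the 296 groups of named genes checked, where chance flags about 1 in 20. In caPI3K sham hearts the array that stood apart was at 7.42 for Dusp4, 7.48 for Gsta3, 8.72 for Kcnj3, 4.83 for Lad1, 11.2 for Foxo3, 15.0 for Fhl2, 12.4 for Mrpl23, 15.3 for Myoz2, 12.5 for Pcna, 10.7 for Pik3ca and 15.8 for Pln. In dnPI3K sham hearts it was at 13.7 for Casq2, 9.98 for Flnc, 12.0 for Mrpl44, 11.6 for Mrps6, 8.70 for Mybpc2, 14.7 for Rps3 and 10.8 for Slc7a1. Outside the autosomal genes, the Y-linked gene Eif2s3y averaged 10.8 (log2) on caPI3K sham replicates 1, 2 and 3, against 3.72 to 5.72 on the other 21 arrays.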

How the results depend on the processing

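Counts of called autosomal genes in sham hearts were 1075 to 1713 under the alternatives of normalization, pseudocount, filter, probe set choice, fit and array weights, and 1008 when low array numbers (under 1000) had a term in the fit, against 1398. They were 579 (336 higher, 243 lower) without the sham arrays numbered under 1000 and 224 (103 higher, 121 lower) without the caPI3K sham arrays with Y-linked signal, where both settings leave fewer arrays and the second leaves 1 caPI3K sham array that is assumed to vary like the other groups. Leaving out 1 array at a time gave 939 to 1268 in sham hearts, the lowest without caPI3K sham replicate 2, and 378 to 560 in infarcted hearts, where 606 fell to 378 without caPI3K MI replicate 2. The difference between the comparisons passed for 61 genes (48 higher, 13 lower) with the groups compared fitted alone, for 43 (35 higher, 8 lower) with array weights, and for 0 to 4 when 1 array was left out, against 0. Of the 134 named genes called, 41 no longer passed without the sham arrays numbered under 1000, 21 with the mean of all probe sets and 7 after quantile normalization. No named gene changed direction while called. Of 829 called autosomal genes with more than 1 kept probe set, 612 had all of them in the same direction. No paired analysis was possible because replicate numbers follow accession order. The depth of an array is its signal over background, and dim genes such as Irs2 in caPI3K hearts give only an uncertain size.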

Other observations

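Angiogenic factors and receptors were called higher in 3 of 24 tested genes (12.5%, against 5.48% of all autosomal genes) and lower in none, with a median of 0.07. Egln3, an oxygen-sensing prolyl hydroxylase, read 4489.7, 6772, 4656 and 5894 in caPI3K sham hearts and 1970.4, 1617, 2588 and 2660.2 in dnPI3K sham hearts, a difference of 1.31 (SE 0.21, adjusted p = 0.000114). Fgf1, a fibroblast growth factor, was higher by 0.76 (adjusted p = 0.0376), and Nrp2, a coreceptor of vascular endothelial growth factors and semaphorins, by 0.54 (adjusted p = 0.0395). Interferon response and MHC class II genes were lower in 2 of 23 (8.70%, against 4.38% of all autosomal genes) and higher in none. The lower ones were Ifit1 at -0.96 (adjusted p = 0.0146) and Ifit2 at -0.73 (adjusted p = 0.0113). The median of that list was -0.25 on all arrays and 0.35 without the caPI3K sham arrays with Y-linked signal. Il33, an alarmin cytokine, was the only call among 26 chemokine, cytokine and complement genes: it read 639.9, 408, 542 and 300.3 in caPI3K sham hearts and 824, 952, 888 and 958 in dnPI3K sham hearts, a difference of -0.97 (SE 0.18, adjusted p = 0.000607).

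Immediate early genes, which respond within minutes to stimulation, had 4 positive and 17 negative differences among 21 tested, with a median of -0.32, and none passed. Among 16 apoptosis genes 3 were lower (18.75%) and 1 higher (6.25%), against 4.38% and 5.48% of all autosomal genes. The lower ones were the survival genes Bcl2 at -0.60 (adjusted p = 0.00712), Birc2 at -0.32 (adjusted p = 0.0171) and Mcl1 at -0.23 (adjusted p = 0.0295). The higher one was Cidea at 0.54 (adjusted p = 0.000928), the same gene that is given above as a brown adipocyte marker. Autophagy and lysosome genes had 2 of 19 lower (10.5%), Gabarapl1 and the lysosomal protease Ctsl at -0.56 (adjusted p = 3.22e-05). The 1 higher member (5.26%) was Becn1, which starts autophagosome formation, at 0.30 (adjusted p = 0.0279), with 4 of its 5 probe sets positive. Translation factors and ribosome biogenesis genes had 4 of 22 lower (18.2%) and 2 higher (9.09%). The elongation factors Eef1a1 and Eef2 differed by -0.29 (adjusted p = 0.0239) and -0.30 (adjusted p = 0.00532), while Eef1a2, the form of Eef1a1 made in adult muscle, was higher by 0.28 (adjusted p = 0.00960). On the X chromosome, outside the autosomal set, 56 of 482 genes were called, where 1398 of 14169 autosomal genes were (9.87%). As 3 of the 4 caPI3K sham arrays and no dnPI3K sham array carry Y-linked signal, sex and transgene cannot be told apart in the X count.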
